A study of Mus musculus with 675 samples.

Results

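Medial smooth muscle cells are the contractile cells of the arterial wall, and they were followed here from cell to cell within 2 plates of a single-cell collection labelled aorta. Cells were chosen by their measured levels of 7 genes. A cell was a member if it held at least 1000 CPM of Myh11 (CPM is the count of a gene divided by the total count of the cell and multiplied by 1000000) and at least 500 CPM of Cnn1. It also had to hold under 100 CPM of the endothelial gene Cdh5, and fewer than 2 of the fibroblast genes Dcn, Lum, Serpinf1 and Pi16 at 100 CPM or more. The rule kept 548 of 675 cells (81.2%). Levels of the 7 genes are therefore a description, and no test was made on them.

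All cells came from male C57BL/6 mice aged 10 weeks, and the labels name no treatment and no altered allele. The series design states adult males over a wider range of ages. Single cells were placed in the wells of plates by flow sorting and sequenced by Smart-seq2, which amplifies full-length cDNA and adds no molecular identifiers. Plate aorta_594s held 54.4% of the 675 cells, from 2 pooled mice, and plate aorta_912s held 45.6%, from 2 other pooled mice, so each plate is 1 pool and differences between plates, mice and handling cannot be told apart. The tissue label is aorta, whereas the protocol speaks of dissociated heart. With 1 pool per plate no p-value is given. Counts and intervals over cells describe these plates and do not stand for variation between mice.

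Smooth muscle cells of the media shorten when calcium activates myosin light chain kinase, and their force passes through actin filaments anchored to dense bodies and to the matrix. Myh11 encodes the smooth muscle myosin heavy chain, Cnn1 calponin, Acta2 the smooth muscle actin, Tagln the actin-binding protein transgelin and Lmod1 leiomodin, an actin nucleator. The same cells make the elastin, collagen and proteoglycans of the wall. In large arteries they are known to differ by position and embryonic origin, and they switch on immediate early genes within minutes of stretch, injury or enzymatic dissociation.

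The rule kept 80.4% of the cells of aorta_594s (exact 95% interval 75.9 to 84.3%) and 82.1% of those of aorta_912s (77.4 to 86.3%). Members held 73698 to 608582 counts with a median of 294814 on aorta_594s, and 53759 to 713700 with a median of 327302 on aorta_912s. The other cells had median totals of 167145 and 166292. The lowest Myh11 among members was 1155 CPM on aorta_594s and 1007 CPM on aorta_912s, where the nearest cell outside that met every other criterion had 973 CPM. The lowest Cnn1 was 644 CPM on aorta_594s, where the nearest such cell outside had 471 CPM, and 658 CPM on aorta_912s. Few cells lay near these limits: 4 on aorta_594s failed by Cnn1 alone and 4 on aorta_912s by Myh11 alone.

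The 3 markers that the rule did not read were present in every member. Acta2 ran from 3664 to 22524 CPM around a median of 6995 on aorta_594s, and from 3192 to 12717 around 5971 on aorta_912s. Tagln ran from 947 to 5120 CPM around 2861 on aorta_594s and from 1422 to 4542 around 2673 on aorta_912s. Lmod1 ran from 150.7 to 3937 CPM around 1328 on aorta_594s and from 72.2 to 2167 around 868 on aorta_912s. These 3 markers also had a count in 97.2 to 100% of the other cells of a plate, so presence alone does not set members apart. Members were chosen by other contractile genes, so these levels are a description. Median levels in the other cells of aorta_594s and aorta_912s were 1199 and 2994 CPM for Acta2, 162.6 and 581.9 CPM for Tagln and 31.6 and 76.3 CPM for Lmod1.

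Transcripts of other cell types were present in members, mostly at low levels, and single markers were high in some cells. Dcn, the main fibroblast gene of the rule, had a count in 91.5% of members on aorta_594s and in 95.7% on aorta_912s, at medians of 13.9 and 20.4 CPM, against medians of 5002 and 3820 CPM in the other cells. It reached 100 CPM in 1.69% and 8.70% of members. The sum of 8 fibroblast markers ran from 0 to 4712 CPM around 40.4 on aorta_594s and from 2.82 to 1064 CPM around 80.9 on aorta_912s. At least 1 of them reached 100 CPM in 26.8% of members of aorta_594s and 40.3% of aorta_912s, and at least 2 in 7 and 18 members. The sum of 8 endothelial markers ran from 0 to 1184 CPM around 24.3 on aorta_594s and from 0 to 1370 CPM around 25.1 on aorta_912s, with at least 1 marker at 100 CPM in 31.9% and 32.02% of members and at least 2 in 6 and 4. At least 1 of 5 adipocyte markers reached 100 CPM in 34.2% and 39.9% of members, mostly Fabp4, a fatty acid carrier also known from endothelium, while Adipoq was at 0 in every member. At least 1 of 8 cardiomyocyte markers did so in 7.80% and 22.9%, mostly Tnnt2, with highest sums of 1078 and 6881 CPM, while Myl2 and Nppa were at 0 in every member. For 5 platelet markers the shares were 15.9% and 5.93% and the highest sums 2234 and 352.2 CPM. Members with 2 markers of another cell type were left out in an alternative, which did not read the cardiomyocyte and pericyte lists. Apart from that, the part of these transcripts in the results was not tested. The sum of 8 macrophage markers had a median of 0 on both plates, with highest cells of 541.2 and 293.9 CPM. All 5 mesothelial markers were at 0 in every member, and no lymphocyte marker reached 100 CPM. Kcnj8, Abcc9, Notch3 and other genes listed as pericyte markers are also expressed by arterial smooth muscle, and 2 or more of that list reached 100 CPM in 88.1% of members of each plate. The list was split. On aorta_594s and aorta_912s, Cspg4 reached 100 CPM in 84.7% and 83.4% of members, Abcc9 in 65.4% and 70.8% and Pdgfrb in 58.3% and 63.6%. Rgs5 did so in 42.4% and 41.5%, Kcnj8 in 24.4% and 31.6% and Notch3 in 14.2% and 9.49%. Higd1b and Vtn each did so in 1 member of each plate. Doublets were not called.

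Members expressed a broad common set of genes. A member had a count in 3042 to 7740 genes with a median of 5401 on aorta_594s, and in 4270 to 9233 with a median of 6226 on aorta_912s. With every member thinned to 50000 counts, which left out no cell, the medians were 3889 and 4340. The median was thus also lower on aorta_594s with equal totals, although the number of genes after thinning still followed the original total of the cell (rho 0.43 and 0.59). In all, 25726 genes had a count in at least 1 member. Core genes, with a count in at least 95% of the members of each plate, numbered 769, of which 725 were protein coding. They held 46.8% of the counts of members on aorta_594s and 47.04% on aorta_912s. At 10 CPM or more in place of 1 count the core held 485 genes.

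The core held most genes of the contractile apparatus and of general upkeep. The list of the contractile apparatus and its anchors holds Myh11 and Cnn1, whose detection in every member was set by the rule. Of its 34 genes, 27 were core with these included (79.4%, against 2.99% of the 25726 genes with any count). The 7 others included the intermediate filament genes Des and Synm. Of 82 cytosolic ribosomal protein genes 77 were core, and of 29 genes of general upkeep 24. Among matrix genes, 9 of 22 for elastic fibres and 8 of 18 for collagen chains were core. Near the share over all genes, 1 of 45 genes of vasoactive receptors and their partners was core (2.22%), namely Ramp1, which helps form the CGRP receptor, as were 2 of 48 genes of ion channels and calcium handling (4.17%). None of 39 Hox genes was core, 11 of them had no count in any member, and the highest, Hoxb2, was detected in 56.9% of members of aorta_594s and 64.8% of aorta_912s and reached 100 CPM in 26.4% and 22.1%. Genes of low level are detected in fewer cells at any depth, so these counts follow level as well as spread.

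Ranked within each cell by counts per kilobase of exonic length among nuclear protein-coding genes, Myl9 came first. Myl9 encodes the regulatory light chain of smooth muscle myosin (ENSMUSG00000067818; GRCm38 chromosome 2, 156775420 to 156781658). It was the first gene in 79.7% of members of aorta_594s (exact interval 74.6 to 84.1%) and in 90.9% of aorta_912s (86.7 to 94.1%). Acta2 (ENSMUSG00000035783; chromosome 19, 34241090 to 34255590) led in 30 and 8 members, and Igfbp7, a secreted binding protein of insulin-like growth factors, in 29 and 14. Median ranks on aorta_594s and aorta_912s were 1 and 1 for Myl9, 2 and 2 for Acta2 and 3 and 3 for Igfbp7. The order of the leading genes was thus the same on both plates for the first 3 places.

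The next places held actin regulators, matrix and general cell genes. Dstn, an actin-depolymerizing factor, had median ranks of 6 and 6, Mgp, the matrix inhibitor of vascular calcification, 7 and 6, the actin-sequestering Tmsb4x 7 and 7, the cytoplasmic actin Actb 5 and 9 and Tagln 8 and 9. The galectin Lgals1 stood at 12 and 9 and the protease inhibitor Cst3 at 12 and 10. Csrp1, a LIM protein of actin bundles, had 13 and 17, the peptide-processing enzyme Cpe 16 and 17, the tropomyosin Tpm2 17 and 21, the selenoprotein Selenow 23 and 17 and B2m, the light chain of class I MHC, 24 and 18. Of the genes of the rule, Cnn1 had median ranks of 27 and 26 and Myh11 55 and 91. Myh11 had a higher CPM than Cnn1 at each plate's median (4399 and 2258 CPM on aorta_594s, 3466 and 2347 CPM on aorta_912s) and a lower rank because it is 7599 bases long against 2736.

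The leading genes came near 1 count per base of exon, and their CPM fell with depth. The median number of counts per exonic base was 1.03 and 1.05 for Myl9, 0.934 and 0.899 for Acta2 and 0.840 and 0.831 for Igfbp7, on aorta_594s and aorta_912s, against 0.427 and 0.458 for Tagln and 0.166 and 0.142 for Myh11. Over members, Spearman's rho between CPM and the total count of the cell was -0.93 and -0.88 for Acta2, -0.85 and -0.81 for Myl9, -0.59 and -0.78 for Igfbp7, -0.55 and -0.59 for Tagln and -0.28 and -0.22 for Myh11. CPM and total share the count of the gene and the depth of the cell. The raw count of Acta2 ran from 917 to 2462 around 2051 on aorta_594s and from 477 to 2439 around 1974 on aorta_912s, with coefficients of variation of 0.117 and 0.177, below the 0.254 and 0.246 of its CPM. The CPM of these genes between cells thus moved with depth, and whether their ranks did so is not given here. Removal of duplicate reads is not described in the sources used here, and its part in these values was not tested.

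**Figure D1:**
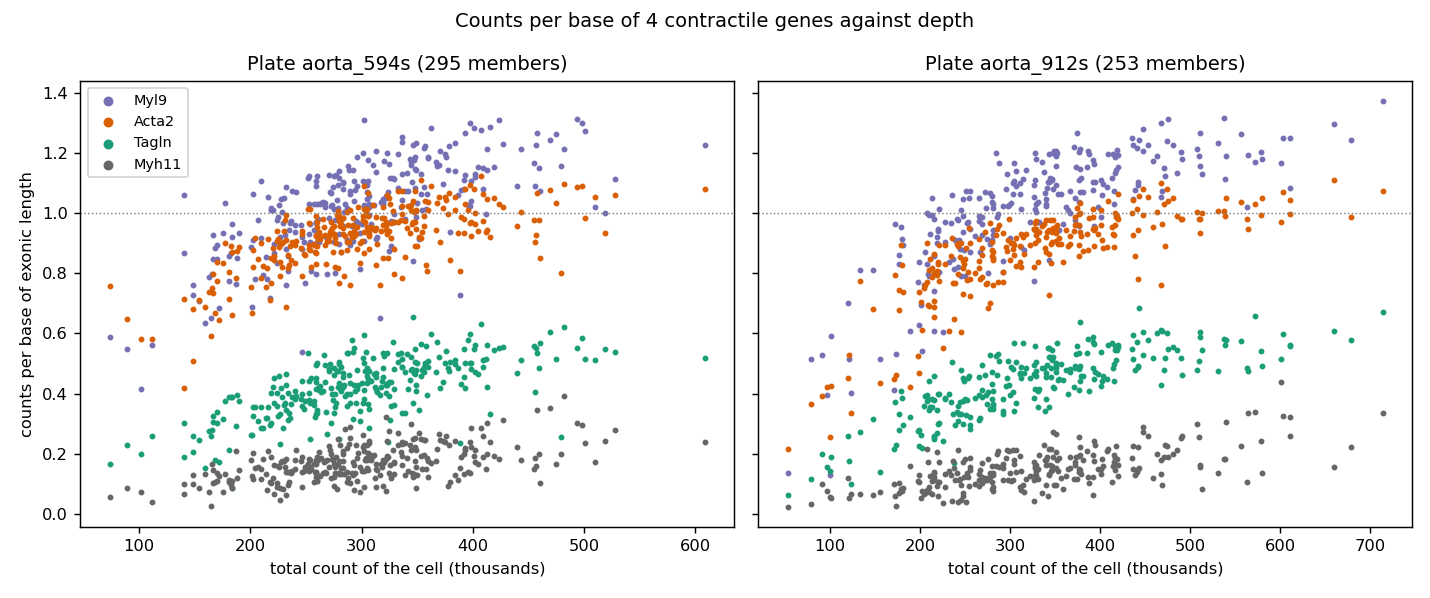
Counts per base of exonic length (vertical axis) of Myl9, Acta2, Tagln and Myh11 against the total count of the cell divided by 1000 (horizontal axis), 1 point per gene and member, aorta_594s left and aorta_912s right, with the dotted line at 1 count per base. Acta2 and Myl9 climb with depth to about 1 count per base and beyond (medians 0.934 and 1.03 on aorta_594s, 0.899 and 1.05 on aorta_912s), whereas Myh11 runs from 0.0250 to 0.394 around 0.166 on aorta_594s and from 0.0249 to 0.438 around 0.142 on aorta_912s, and also climbs with depth.

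Cell-to-cell spread was measured as the squared coefficient of variation (CV2) of CPM over the members of a plate. It was divided by the running median over genes of nearest mean CPM, for the 6896 genes with a mean of at least 20 CPM on both plates. A gene was called variable where this variance ratio was 2 or more on each plate and even where it was 0.5 or less on each plate. In all, 46 genes were variable (0.667% of those tested) and 378 were even (5.48%). On single plates, 1.13% of genes on aorta_594s and 2.41% on aorta_912s reached a ratio of 2. The ratios of the plates followed each other across genes (Spearman's rho 0.62, Pearson's r 0.80, 6896 genes, which are not independent replicates and share the same libraries). None of the 46 variable genes correlated with the summed markers of endothelial cells, fibroblasts, macrophages or pericytes, or with the total count, at a rho of 0.2 or more on both plates. A rank correlation over all members can miss spread that a few cells carry. Without members that held 2 markers of another cell type at 100 CPM, 35 of the 46 remained variable. This marker exclusion did not read the pericyte and cardiomyocyte lists.

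**Figure D2:**
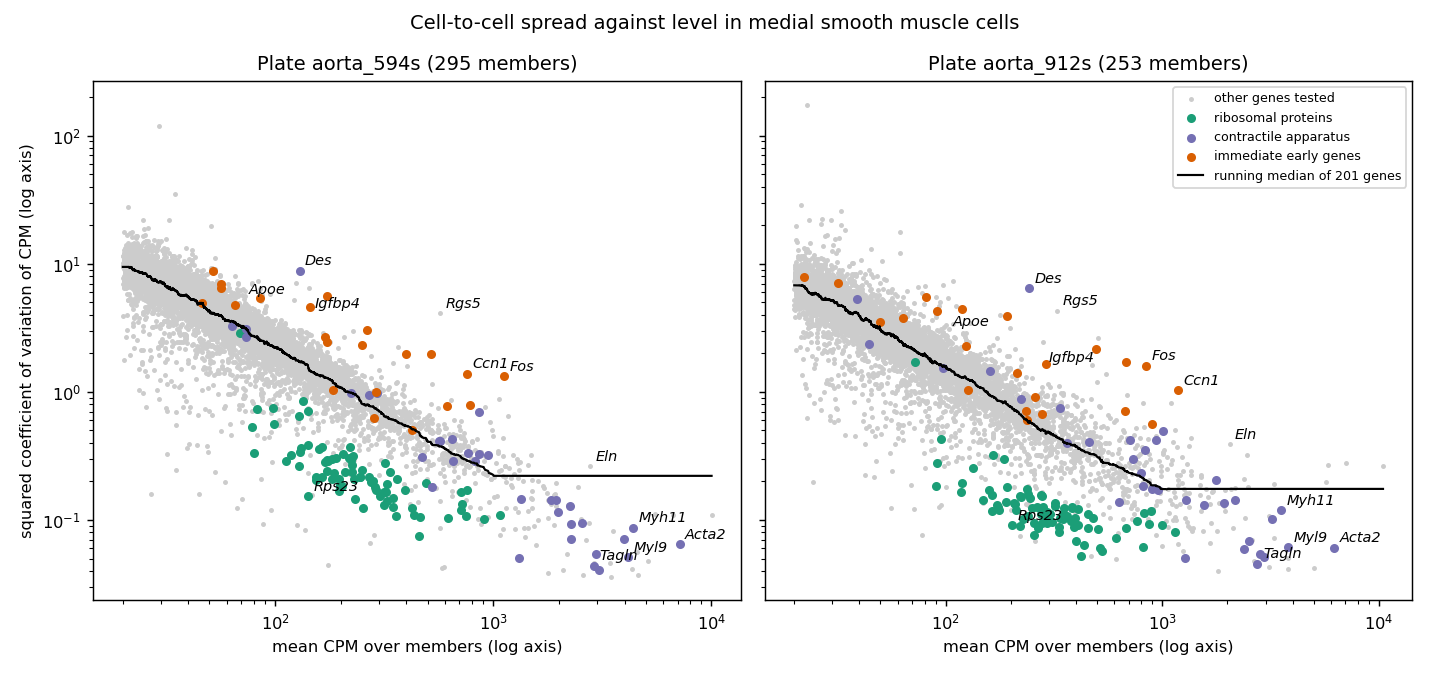
CV2 of CPM over members (vertical axis, log) against mean CPM (horizontal axis, log) for 6896 genes, aorta_594s left and aorta_912s right, with the running median as a black line. Most immediate early genes lie above the line, ribosomal protein genes lie below it, and the contractile genes of highest level lie lowest. Rgs5 lies at 10.9 times the line on aorta_594s and 9.82 times on aorta_912s.

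Among variable genes with at most 20% of their summed CPM in 1 cell, Rgs5 had the highest ratio on the weaker plate, 10.9 on aorta_594s and 9.82 on aorta_912s. It encodes a regulator that shortens signals of Gq- and Gi-coupled receptors and is known from pericytes and arterial smooth muscle (ENSMUSG00000026678; chromosome 1, 169655501 to 169695813). It ran from 0 to 7137 CPM around a median of 20.7 on aorta_594s, and from 0 to 4416 CPM around 39.7 on aorta_912s. It reached 100 CPM in 42.4% of members of aorta_594s (exact interval 36.7 to 48.2%) and in 41.5% of aorta_912s (35.4 to 47.8%), and 1000 CPM in 48 and 28 members. The upper quartile was 460 CPM on aorta_594s and 283.4 CPM on aorta_912s, far above the medians, so the cells of each plate ran from near 0 to very high levels. It was 1 of 21 genes tested on the list of cGMP, RhoA and RGS signalling, and no other gene of that list was variable (4.76%, against 0.667% of all genes tested).

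Immediate early genes made up 11 of the 46 variable genes. Of 33 genes on the list of immediate early and dissociation response genes, 22 passed the filter on level. Of these, 11 were variable (50%, against 0.667% of all genes tested) and 0 even. Under the marker exclusion described above 9 of the 22 were variable, as were 9 with members thinned to 50000 counts. The lists were chosen with earlier results of these data known, so this share is a description. Fos, a transcription factor of the AP-1 complex (ENSMUSG00000021250; chromosome 12, 85473890 to 85477273), ran from 0 to 6255 CPM around 586 on aorta_594s and from 2.85 to 5888 CPM around 362.2 on aorta_912s. Its variance ratio was 5.96 on aorta_594s and 7.83 on aorta_912s. It reached 1000 CPM in 40% of members of aorta_594s and in 29.6% of aorta_912s, while its lower quartile was 34.2 and 60.6 CPM. Most members thus held some Fos, and levels spread over the whole range from a few CPM to over 5000 on both plates.

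The other named immediate early genes also ranged widely. The zinc finger factor Egr1 ran from 0 to 4850 CPM around 175.5 on aorta_594s and from 0 to 4645 around 220.7 on aorta_912s, with ratios of 4.92 and 7.15. Ccn1, a matricellular protein and target of YAP and SRF (chromosome 3, 145646976 to 145649981), ran from 0 to 4322 CPM around 400 on aorta_594s and from 11.3 to 5520 around 762 on aorta_912s, with ratios of 4.78 and 5.87. Nr4a1, an orphan nuclear receptor, ran from 0 to 3112 CPM around 44.2 on aorta_594s and from 0 to 3787 around 188.1 on aorta_912s, with ratios of 3.83 and 6.71. These genes exceeded 3000 CPM in some cells of each plate and were near 0 in others. Atf3, a stress-induced transcription factor, had ratios of 4.35 and 4.86 and reached 100 CPM in 87 members of each plate. Btg2, an antiproliferative gene, had ratios of 3.64 and 3.50 with highest cells of 3615 and 2094 CPM, and Junb, a partner of Fos, had 3.16 and 3.41 with highest cells of 1850 and 1735 CPM. Dusp1, the phosphatase that switches off MAP kinases, was the least variable of the 8 named (2.73 and 3.01). It was detected in every member, with medians of 626 and 760 CPM. Compared with genes of like mean and like exonic length, its weaker ratio was 1.55, under the limit of 2. Errfi1, a feedback inhibitor of EGF receptor signalling that was not on the list, had ratios of 2.79 and 3.40. Its weaker ratio was 1.30 under the marker exclusion described above.

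The summed level of the 33 immediate early genes ran from 1094 to 38749 CPM around 5623 on aorta_594s, and from 1238 to 25740 CPM around 6169 on aorta_912s. It thus took from 0.109 to 3.87% of a cell's counts on aorta_594s and from 0.124 to 2.57% on aorta_912s. Of the 11 variable ones, none reached 1000 CPM in 34.2% of members of aorta_594s (exact interval 28.8 to 40%) and in 26.9% of aorta_912s (21.5 to 32.8%). At most 9 reached it in 1 cell on aorta_594s and 8 on aorta_912s. The sum did not follow depth: rho with the total count was -0.02 and 0.10.

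**Figure D3:**
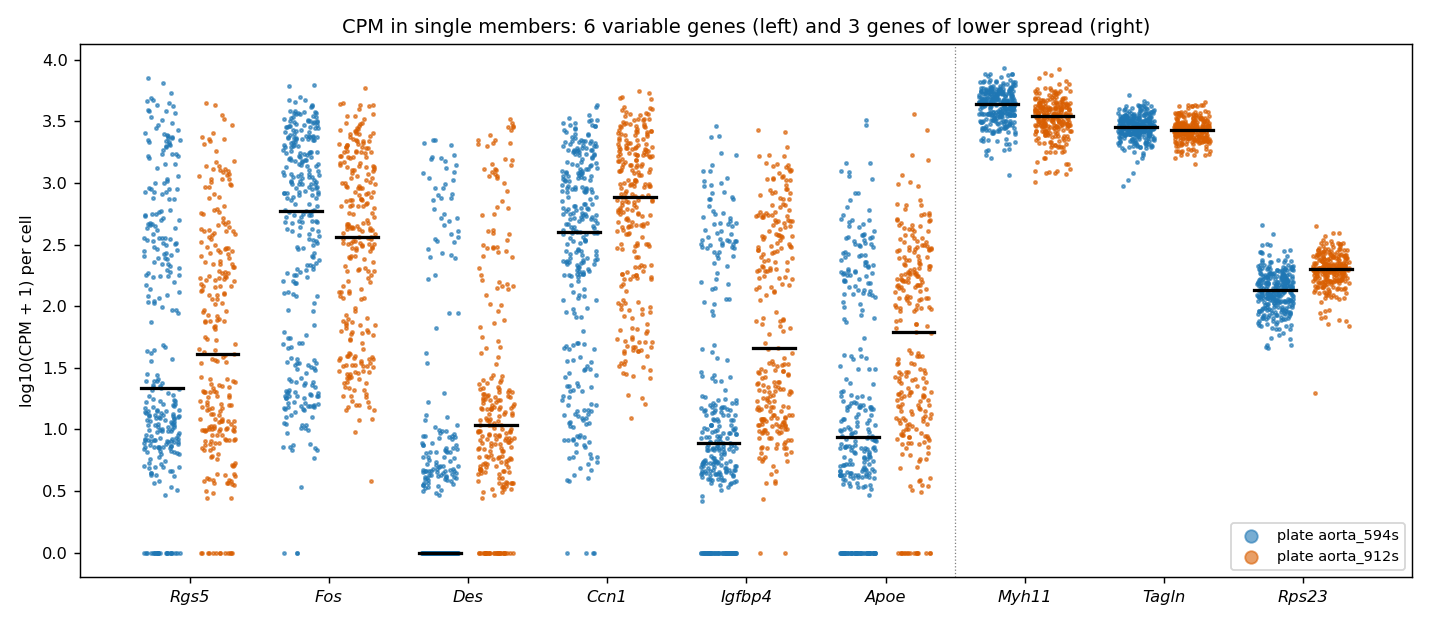
Level of 9 genes in each member as log10(CPM + 1) (vertical axis), 1 point per cell, aorta_594s left of aorta_912s for each gene, with black bars at the medians. Rgs5, Fos, Des, Ccn1, Igfbp4 and Apoe spread from 0 or a few CPM to over 2000, whereas Myh11, Tagln and Rps23 stay within narrow bands around medians of 4399, 2861 and 133.7 CPM on aorta_594s and 3466, 2673 and 197.7 CPM on aorta_912s. Cells under 1000 CPM of Myh11 were left out by the rule, which set the lower end of its band.

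Of the immediate early genes, Fos, Ccn1, Btg2 and Dusp1 varied together across cells, while the first-ranked gene Myl9 was even. Egr1, Atf3, Acta2, Cnn1, Rgs5 and Des were considered as well and are not shown. The promoters below were kept because they held letters of the search before the start, and not by spread or joint variation. They are the 250 bases before the gene start in RefSeq (GRCm38.p6), 5′ to 3′ on the strand of the gene: Fos at chr12:85473640-85473889 (plus strand), Ccn1 at chr3:145649986-145650235 (minus), Btg2 at chr1:134079156-134079405 (minus), Dusp1 at chr17:26508473-26508722 (minus) and Myl9 at chr2:156775214-156775463 (plus). Capitals mark TATAAA in Fos and Ccn1, the cAMP response element TGACGTCA in Btg2 and Dusp1, and a CArG box, the binding site of serum response factor, in Myl9.
Fos: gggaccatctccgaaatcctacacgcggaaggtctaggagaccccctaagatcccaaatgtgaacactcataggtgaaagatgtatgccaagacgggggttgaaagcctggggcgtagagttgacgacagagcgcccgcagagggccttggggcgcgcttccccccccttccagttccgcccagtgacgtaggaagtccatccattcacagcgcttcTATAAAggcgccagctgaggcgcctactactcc
Ccn1: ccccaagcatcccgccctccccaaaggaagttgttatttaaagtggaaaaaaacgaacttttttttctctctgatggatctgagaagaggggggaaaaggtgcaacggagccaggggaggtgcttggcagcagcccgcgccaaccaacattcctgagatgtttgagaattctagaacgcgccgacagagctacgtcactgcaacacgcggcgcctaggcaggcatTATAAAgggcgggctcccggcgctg
Btg2: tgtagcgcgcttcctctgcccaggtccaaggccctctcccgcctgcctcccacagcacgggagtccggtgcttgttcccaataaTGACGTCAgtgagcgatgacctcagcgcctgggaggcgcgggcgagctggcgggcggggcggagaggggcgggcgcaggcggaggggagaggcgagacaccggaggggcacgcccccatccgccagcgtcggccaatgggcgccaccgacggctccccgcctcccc
Dusp1: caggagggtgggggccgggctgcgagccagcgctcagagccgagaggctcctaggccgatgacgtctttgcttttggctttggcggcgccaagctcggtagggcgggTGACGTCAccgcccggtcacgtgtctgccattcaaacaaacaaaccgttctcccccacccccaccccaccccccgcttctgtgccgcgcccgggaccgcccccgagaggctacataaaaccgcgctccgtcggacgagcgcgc
Myl9: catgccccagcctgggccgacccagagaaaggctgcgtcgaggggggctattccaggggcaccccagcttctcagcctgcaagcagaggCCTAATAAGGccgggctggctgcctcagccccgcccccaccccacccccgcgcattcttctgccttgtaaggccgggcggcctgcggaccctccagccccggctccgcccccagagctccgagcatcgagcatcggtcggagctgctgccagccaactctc
The TATAAA of Fos began 33 bases before the start and that of Ccn1 25 bases before it. The marked letters of Btg2, Dusp1 and Myl9 lay further upstream.

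These letters were searched on both strands from 250 bases before to 50 after the start, in 27025 genes with a promoter entry. TATAAA was found in 10 of the 32 variable genes that matched an entry (31.3%), among them Fos, Junb, Ccn1, Gadd45g, Apoe and Igfbp4, against 11.5% of matched even genes, 451 of 5340 matched genes tested for spread (8.45%) and 15.7% of all entries. TGACGTCA was found in 4 of the 32 (12.5%), against 3.58% of genes tested and 2.03% of all. The AP-1 letters TGACTCA were in 3 of the 32 (9.38%), against 4.19% of genes tested and 5.95% of all. A CArG box, which can overlap TATAAA, was in 0 of the 32 variable genes and in 5 of 29 matched contractile genes (Myl9, Myl6, Cnn2, Vcl and Ldb3), against 1.82% of genes tested. The CArG box was searched only as CCWWWWWWGG, where W is A or T, so a box with a mismatch was not counted. A match describes the letters in this window only.

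The muscle genes Des, Actg2 and Casq1 were variable. Des and Actg2 were 2 of the 34 contractile genes tested (5.88%, against 0.667% of all genes tested), and Casq1 was on no list. Des encodes desmin, the intermediate filament of muscle (ENSMUSG00000026208; chromosome 1, 75360329 to 75368579). It ran from 0 to 2230 CPM around a median of 0 on aorta_594s and from 0 to 3292 CPM around 9.96 on aorta_912s, with variance ratios of 5.13 and 11.1. It reached 100 CPM in 42 members of aorta_594s (14.2%, exact interval 10.5 to 18.8%) and in 58 of aorta_912s (22.9%, 17.9 to 28.6%). Desmin transcripts thus stood out in a minority of members. Actg2, the enteric smooth muscle actin, ran from 1.64 to 2967 CPM around 823 on aorta_594s and from 10.1 to 3215 CPM around 1003 on aorta_912s, with ratios of 2.62 and 2.83. Actg2 is a close paralog of Acta2, and reads of the more abundant gene could be placed on it. Casq1, the calsequestrin that stores calcium in the reticulum of skeletal muscle, ran from 0 to 2610 CPM around 7.26 on aorta_594s and from 0 to 1798 CPM around 32.5 on aorta_912s, with ratios of 3.05 and 3.06.

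Of the other named variable genes, Sparcl1, Igfbp4 and Fn1 were on the list of proteoglycans, matricellular and basement membrane proteins, and Apoe, Sfrp2, Itih4 and Itga5 were on no list. Sparcl1, a matricellular relative of SPARC, was found in every member and ran from 3.28 to 5323 CPM around 870 on aorta_594s and from 13.7 to 4365 CPM around 934 on aorta_912s, with ratios of 4.01 and 4.66. Igfbp4 ran from 0 to 2875 CPM around 6.78 on aorta_594s and from 0 to 2709 CPM around 44.6 on aorta_912s, with ratios of 4.45 and 4.96. Apoe, the lipid carrier, ran from 0 to 3247 CPM around 7.71 on aorta_594s and from 0 to 3633 CPM around 60.2 on aorta_912s, with ratios of 4.03 and 4.71. Under the marker exclusion described above, the weaker ratio of Apoe was 2.15, close to the limit of 2, and that of Igfbp4 3.78. Sparcl1 was thus graded across members, and Igfbp4 and Apoe were high in some and low in most. In the other cells Igfbp4 had medians of 1282 and 833 CPM and Apoe of 746 and 1473 CPM. Over members, rho between Igfbp4 and the fibroblast marker sum was 0.29 on aorta_594s and 0.17 on aorta_912s, and its part in the spread was not tested.

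Sfrp2, a secreted modulator of Wnt signalling, ran from 0 to 4058 CPM around 146.3 on aorta_594s and from 2.14 to 3693 CPM around 350.4 on aorta_912s, with ratios of 3.85 and 4.94. Itih4, known as a plasma protein of the liver, ran from 0 to 3015 CPM around 260.9 on aorta_594s and from 0 to 3939 CPM around 290.6 on aorta_912s, with ratios of 2.96 and 4.98. Fn1, which encodes fibronectin, ran from 6.26 to 6505 CPM around 944 on aorta_594s and from 14.6 to 4516 CPM around 658 on aorta_912s, with ratios of 2.95 and 3.84. Fn1 is 11685 bases long, and compared with genes of like mean and like length its weaker ratio was 1.07. Itga5, the fibronectin receptor subunit, ran from 0 to 3248 CPM around 233.7 on aorta_594s and from 0 to 3315 CPM around 333.1 on aorta_912s, with ratios of 2.76 and 3.87. Medians of Sfrp2, Itih4 and Itga5 in the other cells lay between 6.79 and 47.97 CPM, below those of members.

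The remaining 26 variable genes were lower in ratio or rested on few cells. For 20 of them the weaker ratio ran from 2.00 to 2.59 around 2.19. They included Jun, Ccn2 and Gadd45g of the immediate early list, the elastic fibre gene Mfap4, the ATP-gated channel P2rx1, the Wnt modulators Frzb and Sost, the galectin Lgals3 and the serine protease Prss23. In the other 6 (Cd82, Gpx3, Igfbp5, Sdc1, Tmem176b and Vcam1) the highest cell held over 20% of the summed CPM on a plate, up to 83.1% for the secreted peroxidase Gpx3 on aorta_912s, which had ratios of 16.5 and 27.4. With the highest cell of each gene left out, 38 genes were variable.

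Among the 40 variable genes without such a cell, the immediate early genes varied together. Rank correlations of CPM over members were computed for all 780 pairs on each plate. Fos with Egr1 had the highest, with a rho of 0.58 on aorta_594s and 0.49 on aorta_912s, over all members of each. Fos also correlated with Btg2 (0.47 and 0.41), Ccn1 (0.45 and 0.34), Junb (0.38 and 0.34), Dusp1 (0.36 and 0.40) and Nr4a1 (0.32 and 0.38). Btg2 correlated with Nr4a1 (0.38 and 0.45) and Ccn1 (0.32 and 0.44), and Atf3 with Ccn1 (0.33 and 0.37). Of the 55 pairs of immediate early genes, 26 had a rho of at least 0.2 on both plates, with medians of 0.26 and 0.23. Of 406 pairs without one, 7 did, and of the pairs that held one such gene 0 did, with medians from 0.01 to 0.02. The highest pair outside the list was Prss23 with Itga5 (0.34 and 0.32). With members thinned to equal depth, Fos with Egr1 had 0.59 and 0.48 and Prss23 with Itga5 0.34 and 0.32. All cells of a plate share mice, dissociation and library preparation, so these values describe 2 pools.

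Rgs5, Des, Igfbp4, Apoe and Sparcl1 were as variable as the immediate early genes but did not follow them: no pair of an immediate early gene with another variable gene reached a rho of 0.2 on both plates.

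**Figure D4:**
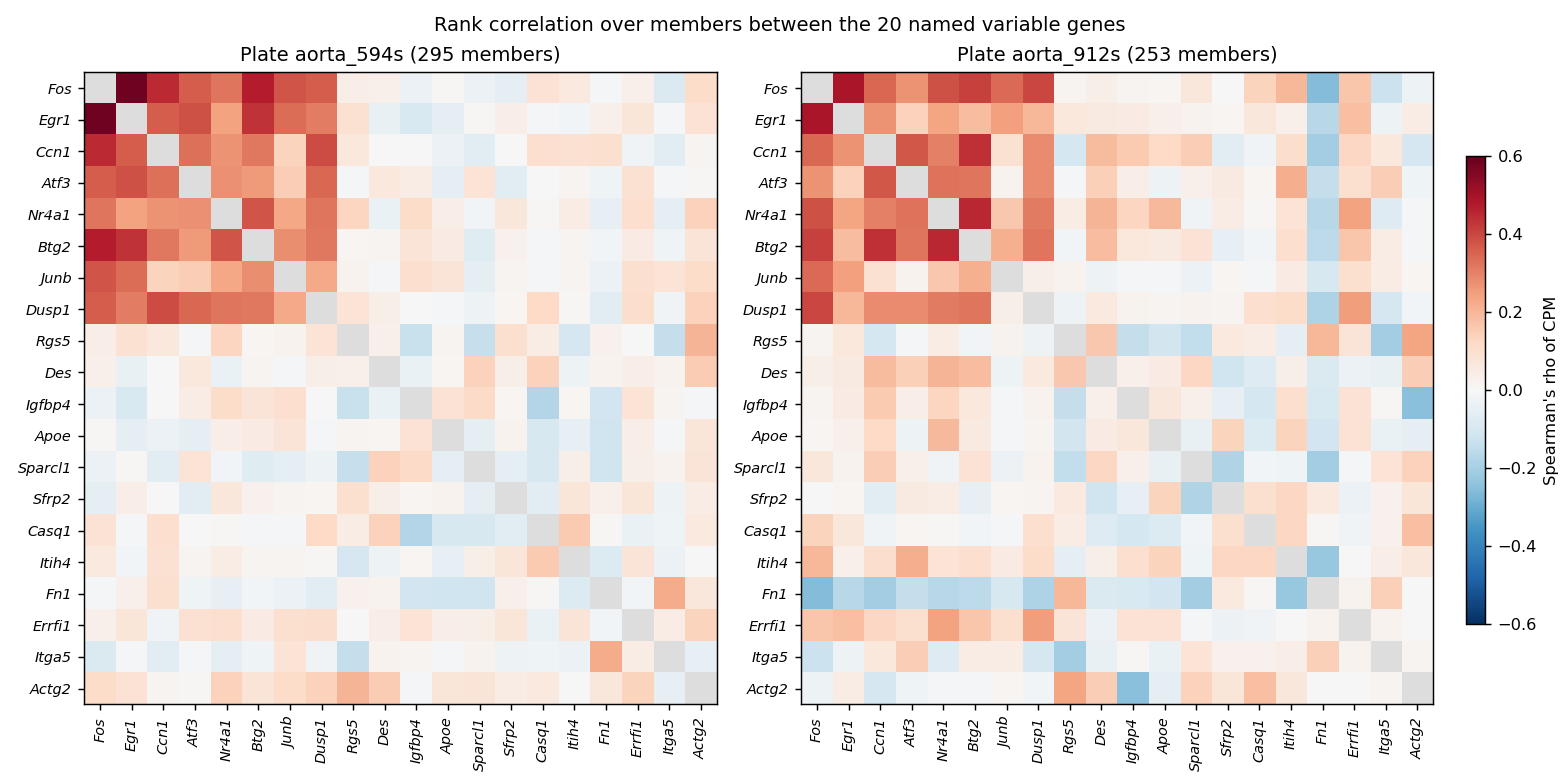
Spearman's rho of CPM over members (colour) between the 20 named variable genes, aorta_594s left and aorta_912s right, with the 8 immediate early genes first. They form a positive block on both plates, from Fos with Egr1 at 0.58 and 0.49 downward, while most other pairs lie near 0.

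Nearly all ribosomal protein genes tested were even, as were many genes of general upkeep. Of the 378 even genes, 75 encode cytosolic ribosomal proteins, which is 75 of the 79 tested on that list (94.9%, against 5.48% of all genes tested). Rps3, Rpl8 and Rpl7l1 were among those that were not. Of 29 genes of general upkeep, 14 were even (48.3%), among them Actb, Gapdh, Eef1a1, Ubb and Ppia. Even genes had a median exonic length of 1776 bases, against 2802 for variable genes and 4434 for all genes tested, and 27.5% of the 378 were not annotated as protein coding.

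Rps23, a protein of the small ribosomal subunit, ran from 44.7 to 451 CPM around 133.7 on aorta_594s and from 18.6 to 442 CPM around 197.7 on aorta_912s, with variance ratios of 0.0948 and 0.122. Ubb, a ubiquitin gene, ran from 62.9 to 642 CPM around 277.5 on aorta_594s and from 37.2 to 487 CPM around 250.5 on aorta_912s, with ratios of 0.100 and 0.127. With members thinned to 50000 counts the weaker ratios were 0.216 for Rps23 and 0.258 for Ubb, so these ratios depend on depth. Their ranges spanned little over 1 order of magnitude, where Fos and Rgs5 spanned 3 or more. The ribosomal genes Rpl39, Rpl23a and Rps25 and the oxidative phosphorylation genes Atp5l and Ndufb4 had ratios of 0.108 to 0.153 on both plates. Ribosomal genes have many processed pseudogenes, so that their counts can be split in ways the sources used here do not describe.

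Some of the most even genes overlap other genes. Wdr38 (chromosome 2, 38997476 to 39006168), a WD repeat gene with the lowest ratios of the named genes (0.0648 and 0.0673, and 0.147 on the weaker plate after thinning), shares 821 bases of exon with Rpl35 on the opposite strand. Mxd3 (0.130 and 0.102), a partner of MAX, shares exon with Prelid1. Rtl8a (0.112 and 0.115), a gene of retroviral origin, has close paralogs. No source used here states that counting used strand, so reads of each gene and its partner cannot be told apart.

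Contractile genes of the highest level were also even, although this rested on the choice of genes they were compared with. Dstn, Myl9, Tpm2, Cnn1, Tagln, Tpm1, Myl6 and Acta2, 8 of 34 on the list, were even (23.5%, against 5.48% of all genes tested), and Cnn1 was read by the rule. Their coefficients of variation of CPM were 0.254 and 0.246 for Acta2, 0.227 and 0.248 for Myl9 and 0.210 and 0.213 for Tagln. All 8 had means above 1006 CPM on aorta_594s or 1060 CPM on aorta_912s, where all genes share 1 reference value. Of the 83 genes above both of these means, 25 were even (30.1%). With a running median that narrowed to 51 genes at the ends, 3 of the 34 were even, and with genes of like length 14 were. Median variance ratios of the list were 0.676 on aorta_594s and 0.899 on aorta_912s. The summed level of the list ran from 32386 to 90220 CPM around 55251 on aorta_594s and from 29967 to 76038 around 49827 on aorta_912s, and its rho with the total count was -0.58 and -0.61.

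The other lists are read against 0.667% variable and 5.48% even among all genes tested. Of 31 tested genes of proteoglycans, matricellular and basement membrane proteins, 6 were variable (Fn1, Igfbp2, Igfbp4, Igfbp5, Ccn5 and Sparcl1; 19.4%) and 3 even (Igfbp7, Sparc and Bgn; 9.68%). Bgn, the proteoglycan biglycan, averaged 5128 CPM on aorta_594s and 5018 on aorta_912s with ratios of 0.218 and 0.243. Of 15 elastic fibre genes 1 was variable (Mfap4; 6.67%), and Eln itself, with means of 2778 and 2044 CPM, had ratios of 1.19 and 2.23. None of 13 collagen chains was variable, with Col1a1 highest on the weaker plate at 1.56 and 1.96. Igfbp genes thus stood at both ends, with Igfbp2, Igfbp4 and Igfbp5 variable and Igfbp7 even. For Igfbp5, however, 1 cell held 20.9% of the summed CPM on aorta_594s and 24.6% on aorta_912s. The CPM of Igfbp7 fell with depth, as given above.

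None of the 24 channel genes, 22 genes of Notch, TGF-beta and BMP signalling, 19 heat shock and chaperone genes, 11 clock genes, 10 genes of SRF and myocardin regulation, 9 mitochondrially encoded genes, 6 cell cycle genes or 3 Hox genes that passed the filter was variable. At 0.667% of all genes tested, a count of 0 in lists of this size is near the background. Even genes of these lists were 2 of the 19 heat shock and chaperone genes, 1 clock gene (Bhlhe41), 1 mitochondrial gene (mt-Atp6) and 1 cell cycle gene (Pcna). Myocd, the coactivator of smooth muscle genes, averaged 436 and 818 CPM with ratios of 1.06 and 1.62. Of 11 vasoactive receptor genes 1 was variable (P2rx1, 2.23 and 2.60; 9.09%), and of 10 genes described for modulated smooth muscle 2 were (Vcam1 and Lgals3; 20%), with Vim, the intermediate filament vimentin, even at 0.189 and 0.289. The mitochondrial genes differed between plates in spread, with median ratios of 0.210 on aorta_594s and 0.992 on aorta_912s. Their sum ran from 0.804 to 3.15% of counts around 1.35% on aorta_594s and from 0.573 to 4.45% around 1.13% on aorta_912s, and its rho with the total count was -0.69 and -0.74.

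**Figure D5:**
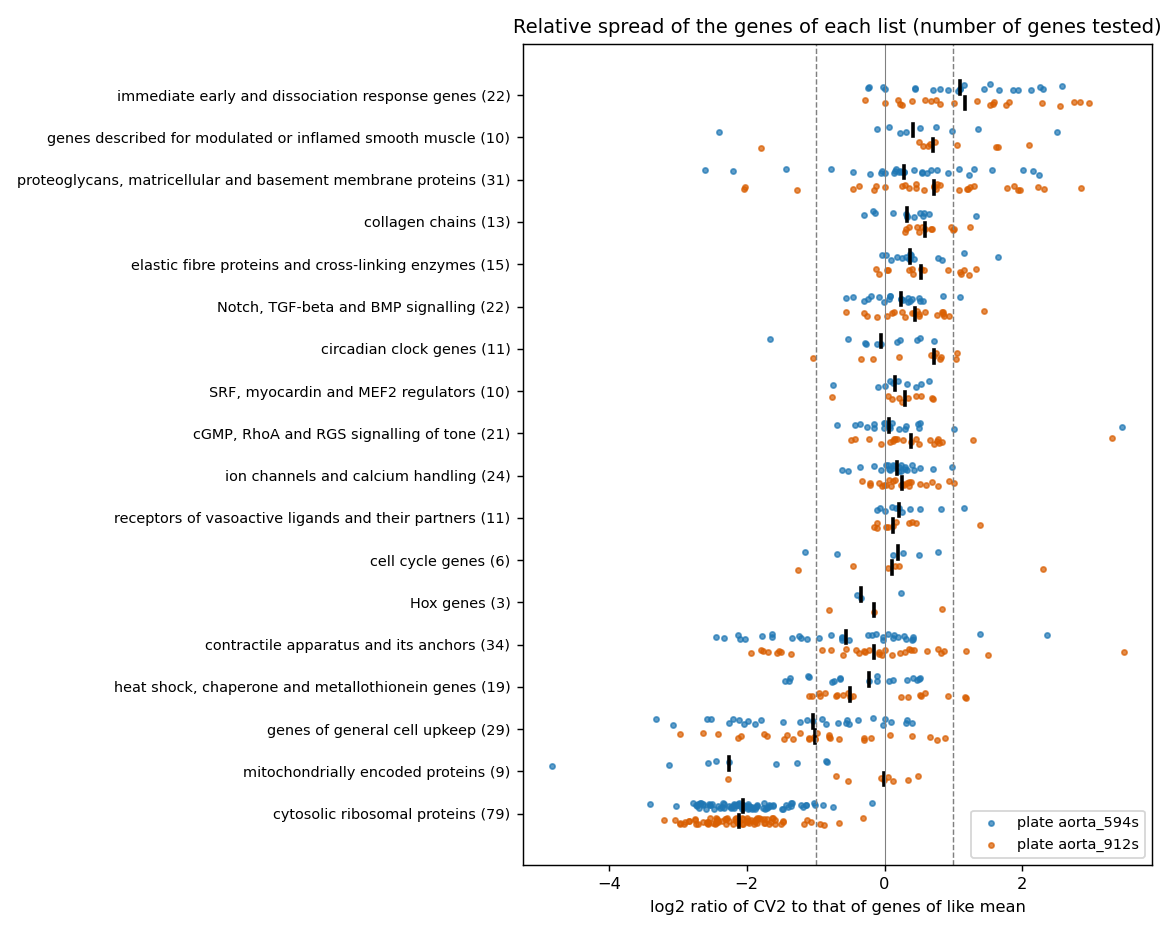
Log2 of the variance ratio (horizontal axis) for every tested gene of each list (rows, with the number tested), aorta_594s above aorta_912s in each row, black bars at medians and dashed lines at the limits of -1 and 1. Immediate early genes lie furthest to the right (median ratios 2.14 and 2.25) and ribosomal protein genes to the left (0.241 and 0.230).

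Between the plates, mean levels in members were similar for most genes. Of 7930 genes with a mean of 20 CPM or more on a plate, 411 were at least 2-fold apart (5.18%) with 1 CPM added, 3.49% being higher and 1.69% lower on aorta_594s, and the median log2 ratio was 0.01. With plate medians in place of means, 4.48% were higher and 28.5% lower. Counts per cell, mice and plate all differ between the 2 sets, so these values are those of 2 pools. Of the immediate early list, 4 of 26 were higher on aorta_594s and 0 lower, with log2 ratios of 1.30 for Klf4, 1.71 for Fosb, 1.19 for Klf2 and 1.18 for Cebpb. Of 14 clock genes, 0 were higher and 3 lower, with log2 ratios of -2.02 for Per1, -1.16 for Dbp and -1.21 for Cry2, and no time of collection was used here. None of 34 contractile, 79 ribosomal or 29 upkeep genes was past the limit.

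Cldn5, a tight junction protein of endothelium (ENSMUSG00000041378; chromosome 16, 18776847 to 18778262), had the largest ratio among the named genes. It ran from 0 to 1182 CPM around 6.19 on aorta_594s and from 0 to 25.3 CPM around 0 on aorta_912s, with means of 50.6 and 0.680 CPM and a log2 ratio of 4.94. It was detected in 63.4% of members of aorta_594s and 13.04% of aorta_912s, and in 75% and 25.5% of the other cells, and it reached 100 CPM in 35 and 0 members. Its difference was thus not confined to members, while the endothelial marker sum had medians of 24.3 and 25.1 CPM in members. Acta1, the skeletal muscle actin, averaged 28.2 CPM on aorta_594s and 4.82 CPM on aorta_912s, with highest cells of 223.1 and 156.7 CPM. It is a close paralog of Acta2, which had 7145 and 6203 CPM. Fzd8, a Wnt receptor, Sema3a, a guidance cue, Khsrp, an RNA-binding protein, and Plekha3 and Gtf3c4 were also named, with means of 20.1 to 62.8 CPM on aorta_594s and 3.08 to 16.1 CPM on aorta_912s.

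Bcl6, a transcriptional repressor (ENSMUSG00000022508; chromosome 16, 23965052 to 23988852), was lowest on aorta_594s relative to aorta_912s. It ran from 0 to 173.04 CPM around 0 on aorta_594s and from 0 to 873 CPM around 8.78 on aorta_912s, with means of 6.90 and 89.3 CPM and a log2 ratio of -3.51. It reached 100 CPM in 2 and 83 members. It was detected in 22.2% of the other cells of aorta_594s and 63.6% of aorta_912s, so the other cells differed in the same direction. Per1, a repressor of the circadian clock, averaged 23.7 CPM on aorta_594s and 99.5 CPM on aorta_912s (-2.02), reaching 100 CPM in 25 and 77 members. Tnnt2, the cardiac troponin T, averaged 23.1 CPM on aorta_594s and 107.96 CPM on aorta_912s (-2.18) and reached 100 CPM in 19 and 52 members. Kctd16, Mamld1, Ston1 and 2 loci annotated as olfactory receptors, Olfr224 and Olfr329-ps, averaged 3.09 to 12.9 CPM on aorta_594s and 22.96 to 49.99 CPM on aorta_912s. Most of these genes were at 0 in the median member of aorta_594s, and their means rest on the minority of cells that held them.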

How the data were processed

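Smart-seq2 counts of 675 single cells labelled aorta were analysed. The authors deposited whole-number counts per gene and cell for 46517 identifiers. The submitters' processing notes name bcl2fastq, Bowtie, Bowtie2, featureCounts, Subread and GRCm38 (mm10); versions, their order, duplicate removal and strand: not given in the sources used here. Names, exonic lengths and coordinates came from GENCODE M21; 512 identifiers without a symbol held 0.217% of counts. CPM was computed from each cell's total. Plate aorta_594s held 295 members among 367 cells and plate aorta_912s 253 among 308. Cells of a plate share 1 pool of 2 mice, so no test was fitted, and values over cells do not measure variation between mice. Exact binomial intervals cover counting error only, since amplified reads are not independent molecules.

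The running median took 201 genes. The members and lists were chosen with earlier results of these data known. Named were the 15 best-ranked genes, the 20 most variable and 12 most even on the weaker plate, the 10 closest pairs, the 8 genes furthest apart between plates each way (for spread and plates, protein-coding and with at most 20% of the summed CPM in 1 cell) and the extremes of each list. The variance and plate calculations were tested on simulated data. Python 3.11.15, numpy 2.4.6, scipy 1.17.1, pandas 2.3.3 and matplotlib 3.10.9 were used. Alternatives covered the limits of the rule, RNA of other types, the CPM total, depth, mean filters, running medians, single cells, the CPM added and plate medians. Some items are not reported here.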

Additional observations from a re-analysis of the deposited data

How the results depend on the processing

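Under the 16 alternatives, 65 of 77 values stayed within 1.5 times the main one, judged for genes and cells by their counts. No value changed sign, but counts cannot be negative, so only the correlation of the variance ratio between the plates could have done so. The core of 769 genes became 441 with members thinned to 50000 counts and 485 at 10 CPM. With a mean of 50 CPM required fewer genes were tested, so shares and counts can move apart: 1.04% of those tested were variable (38 genes), 6.86% even, and on aorta_594s 2.69% were higher and 1.37% lower. With a mean of 1 CPM, 1.26% were variable, 9.06% even, 6.31% higher and 4.73% lower (1186 even, 918 higher and 689 lower genes). With 10 CPM added, 1.10% were higher and 0.706% lower (87 and 56 genes). With plate medians, 28.5% were lower and 4.48% higher; a gene with a count in fewer than 50% of members has a median of 0. Of the 46 variable genes, 35 remained variable without members that held 2 markers of another cell type (pericyte and cardiomyocyte lists not read). Of the 20 named, 17 stayed variable in every alternative, and Errfi1, Fn1 and Dusp1 did not. All 12 named even genes stayed even wherever they were tested, but thinning raised their weaker ratios by over 1.5 times in most, to 0.147 for Wdr38 and 0.258 for Ubb. The alternatives by exonic length and by a running median that narrows at its ends were chosen after seeing the data. No paired analysis was possible because no result comes from a test and the replicate numbers only name cells.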
